A study of Mus musculus with 40 samples.

Results

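TNFα-treated cardiac fibroblasts in which the gene for TAK1 had been targeted with Cre recombinase were compared with TNFα-treated fibroblasts that had received a control virus. The comparison covers 8 of the 40 libraries in the series, the 4 titled iCre_TNFa and the 4 titled LacZ_TNFa, taken as 4 pairs by replicate number. All 25210 genes with at least 10 counts over the 40 libraries were tested. The cells came from hearts of adult TAK1fl/fl mice on the C57BL/6J background and were used at passage 1, and the study describes 4 male biological replicates per group. Both groups therefore carried floxed *Map3k7*, the gene for TAK1, and both received an adenovirus whose cargo was driven by the CMV promoter. That cargo was Cre recombinase (iCre) in one group and the control gene LacZ in the other. After 48 h of transduction and 48 h of rest the cells were serum-starved and given TNFα at 10 ng/ml for 24 h. No cells without loxP sites are among the 40 libraries, so effects of Cre itself and of TAK1 loss cannot be told apart.

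TNFα binds TNF receptor 1, which gathers adaptor proteins, ubiquitin ligases and the kinase RIPK1. Ubiquitin chains on that complex recruit TAK1 through its partners TAB2 and TAB3, and TAB1 is a further partner of TAK1. TAK1 then phosphorylates the IκB kinases, which release NF-κB, and the MAP kinase kinases that lead to JNK and p38. NF-κB targets include chemokines, adhesion molecules, acute-phase proteins, survival genes and the inhibitors that end its own activity. In the injured heart, fibroblasts are a source of such mediators besides making the collagen matrix.

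Between 26496502 and 50029007 reads were counted per library. Fibroblast genes were abundant in both groups: *Pdgfra*, the PDGF receptor of fibroblasts, stood at 1897 ± 431 CPM in LacZ against 1141 ± 273 CPM in iCre fibroblasts (counts per 1000000 counts on TMM-scaled library sizes, mean ± SD, n = 4 throughout). The endothelial gene *Pecam1* was at 0.463 ± 0.382 and 0.600 ± 0.341 CPM and the leukocyte gene *Ptprc* at 1.28 ± 0.651 and 0.566 ± 0.462 CPM. The summed level of the 7 leukocyte and macrophage markers lay between 56.8 and 161 CPM in LacZ against between 42.9 and 119 CPM in iCre libraries, with 1 of them, *Cd68*, higher (log2 fold change 1.12, adjusted p = 0.00126) and 2 lower. *Ptprc* was lower in iCre (adjusted p = 0.0285), a call that was lost without the replicate block (adjusted p = 0.233), with a correction for transcript GC content (adjusted p = 0.189) and in 3 of the 4 fits that left out a pair. Of the 7 markers, 4 were lower without pair 1, and none without pair 3, without pair 4 or without the block. The 5 pericyte and smooth muscle markers summed to between 133 and 488 CPM in LacZ against between 324 and 1156 CPM in iCre libraries. That sum was carried by *Rgs5*, a regulator of G-protein signalling, at 132, 60.4, 354 and 227 CPM in LacZ replicates 1 to 4 and 1072, 270.2, 1003 and 573 CPM in iCre replicates 1 to 4. *Rgs5* was higher in every pair (log2 fold change 2.02 with a standard error, SE, of 0.253, and adjusted p = 4.57e-04 by the quasi-likelihood test of edgeR), although the groups overlapped. *Kcnj8*, a potassium channel of pericytes, was higher too (0.244 ± 0.0515 CPM in LacZ against 1.30 ± 0.283 CPM in iCre, log2 fold change 2.43, adjusted p = 7.41e-04), and *Notch3*, a receptor of mural cells, was lower (109 ± 26.6 against 59.9 ± 15.5 CPM, −0.84, adjusted p = 0.00237). *Abcc9* and the smooth muscle myosin gene *Myh11* did not pass (adjusted p = 0.446 and 0.209), with *Myh11* at 0.628 ± 0.168 CPM in LacZ against 0.341 ± 0.189 CPM in iCre. Endothelial markers summed to 7.88 to 15.9 CPM in LacZ against 9.62 to 16.7 CPM in iCre libraries, and cardiomyocyte, Schwann cell and mesothelial markers to at most 20.2 CPM in any library. The part of other cells in the results was not tested. In bulk RNA, fewer cells of a type and less RNA per cell cannot be told apart. Against the other 3 libraries of their group, iCre replicate 1 had 112 and iCre replicate 2 had 100 of 12184 protein-coding genes at least 4-fold higher, LacZ replicate 2 had a like number, and the other libraries had 1 to 8 such genes. Values without those pairs are given where a result rests on them.

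*Map3k7* itself lies on chromosome 4 of GRCm38 from 31964097 to 32023467. It was read at 251, 209, 243 and 251 CPM in LacZ replicates 1 to 4 and at 150.1, 126, 145 and 155 CPM in iCre replicates 1 to 4. The groups did not overlap, and every iCre library was lower than its LacZ partner (log2 fold change −0.71, SE 0.0745, adjusted p = 2.06e-04). Without ligand *Map3k7* was at 153 ± 6.51 CPM in LacZ against 127 ± 4.27 CPM in iCre, a narrower gap at a lower LacZ level. With IL-1β it was at 220 ± 17.9 CPM in LacZ against 126 ± 4.07 CPM in iCre. Adjusted p-values here and for other genes come from the quasi-likelihood test of edgeR, with the replicate number as a block unless stated, and values such as −1 after a gene are log2 fold changes of iCre over LacZ. The loxP sites flank exon 2, which codes for part of the ATP-binding site. The counts cover the whole gene, so a transcript that lacks exon 2 is still counted, and the remaining level does not measure how many cells recombined. Exon 2 spans chr4:31974823-31974933 on the plus strand, is coding in all of its 111 bases in the 4 GENCODE M21 transcripts in which it was looked up, and contains 37 codons. It is given in capitals between the last 15 bases of exon 1 and the first 15 of exon 3, followed by the junction that its loss would leave, to show the exon that lies between the loxP sites. Its length is a multiple of 3, so the reading frame continues across that junction.
Map3k7 exons 1, 2 and 3: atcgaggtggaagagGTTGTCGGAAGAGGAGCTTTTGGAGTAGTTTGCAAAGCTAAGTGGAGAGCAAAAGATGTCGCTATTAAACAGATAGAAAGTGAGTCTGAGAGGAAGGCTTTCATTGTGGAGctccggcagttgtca
Map3k7 exons 1 and 3 joined: atcgaggtggaagagctccggcagttgtca

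The partners of TAK1 were measured too. *Tab2* did not pass the test (146 ± 6.73 CPM in LacZ against 135 ± 9.71 CPM in iCre, adjusted p = 0.389). *Tab3* fell (−0.53, adjusted p = 0.00253), but not with GC correction (adjusted p = 0.206). *Tab1* was higher by 0.29 (adjusted p = 0.0327), a call that was lost with GC correction (−0.0028), with RLE scaling and in 3 of the 4 fits that left out a pair.

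Under TNFα, 8121 genes differed between iCre and LacZ fibroblasts, 32.2% of those tested. In iCre fibroblasts 4321 genes were higher, which is 17.1% of the genes tested, and 3800 were lower, which is 15.1%. Of these, 1212 were higher and 1736 lower by at least 1 on the log2 scale. Of the gene lists examined, those of CXC and CX3C chemokines, adhesion and acute-phase proteins, interferon-stimulated genes, and MHC class I and the immunoproteasome had the lowest median changes. Those of DNA replication and mitosis, ERK feedback genes and EGF-type ligands, and AP-1 and other early transcription factors had the highest. Many of the genes that changed most belong to none of these lists. For 3798 genes (15.1%) every iCre library lay above every LacZ library, and for 3523 (14%) every one lay below. Leaving out replicate 3 gave 2817 higher and 2788 lower genes, and leaving out replicate 4 gave 2899 and 2796.

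**Figure D1:**
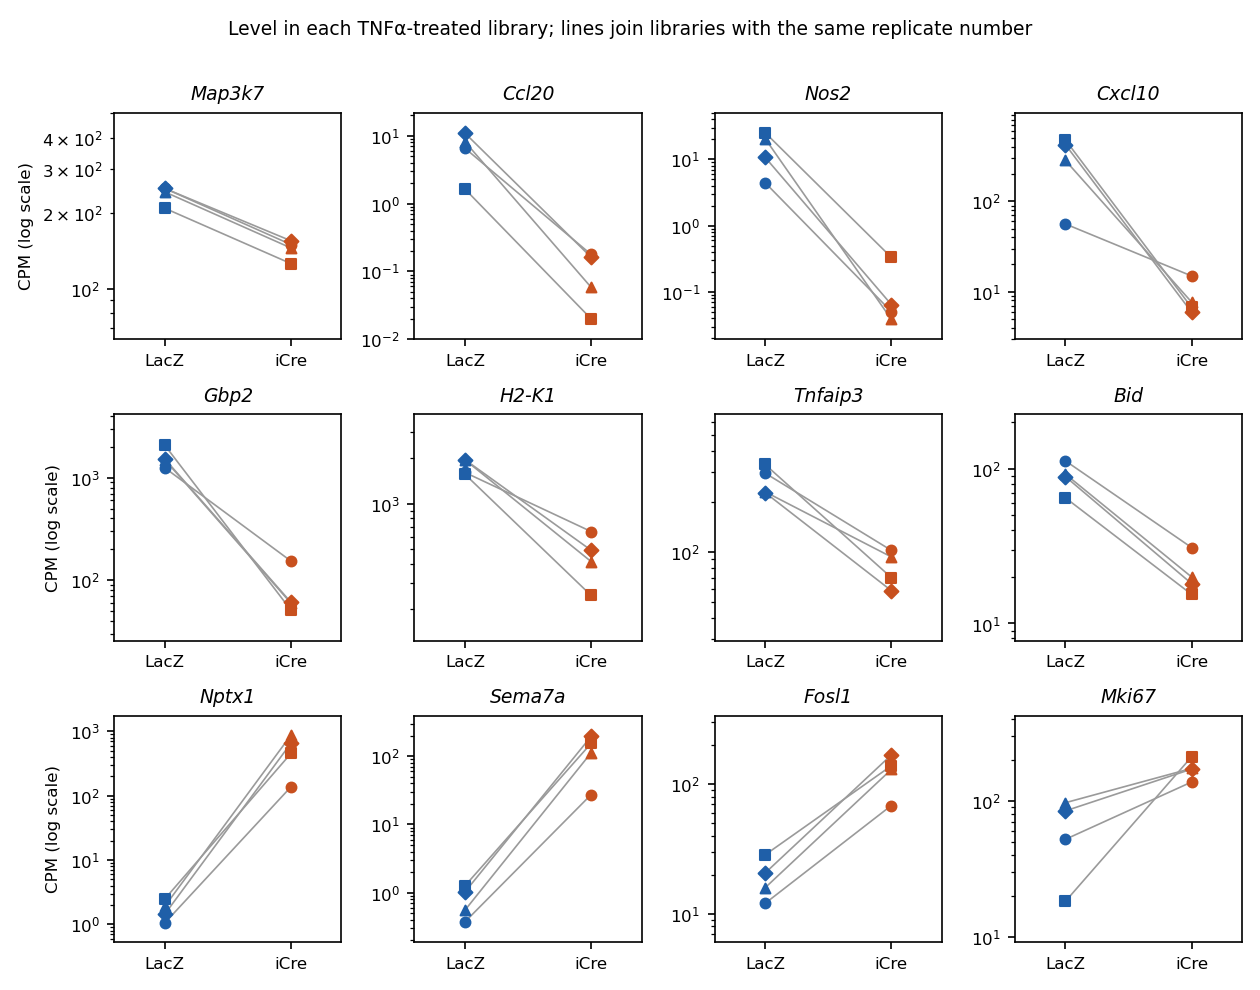
Level of 12 genes in each of the 8 TNFα-treated libraries, in CPM on a log axis, LacZ in blue and iCre in orange, with 1 symbol shape per replicate number and a line joining the libraries of a pair (a value under 0.02 CPM is drawn at 0.02). *Map3k7*, *Ccl20*, *Nos2*, *Cxcl10*, *Gbp2*, *H2-K1*, *Tnfaip3* and *Bid* fall in all 4 pairs, and *Nptx1*, *Sema7a*, *Fosl1* and *Mki67* rise in all 4.

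The change depended on the GC content of the transcript. Over 12182 protein-coding genes averaging at least 1 CPM, the log2 fold change rose by 0.42 for each 10 percentage points of GC content (Spearman's rho = 0.36 across genes, a description, since genes of 1 library are not independent replicates). The slope was 0.34, 0.32, 0.48 and 0.40 in pairs 1 to 4 alone. Among the 2437 genes with the lowest GC content, 54.8% were lower and 10.6% higher in iCre, and among the 2437 with the highest, 12% were lower and 48.3% higher. The same genes had a slope of 0.06 for the deletion without ligand and 0.41 for the deletion with IL-1β, on the same scale. After a correction that removes each library's own trend on GC content, 3289 genes were higher and 3573 lower. Of 8106 calls with a GC content, 70.3% were made again with the same sign, and of 2938 calls of at least 1 on the log2 scale 90.2% were. Whether the trend arose in the cells or in the libraries was not tested. The GC-corrected value is given beside a gene described for its deletion change, or a list's count, where it ends a call or moves a value by over 1.5-fold.

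**Figure D2:**
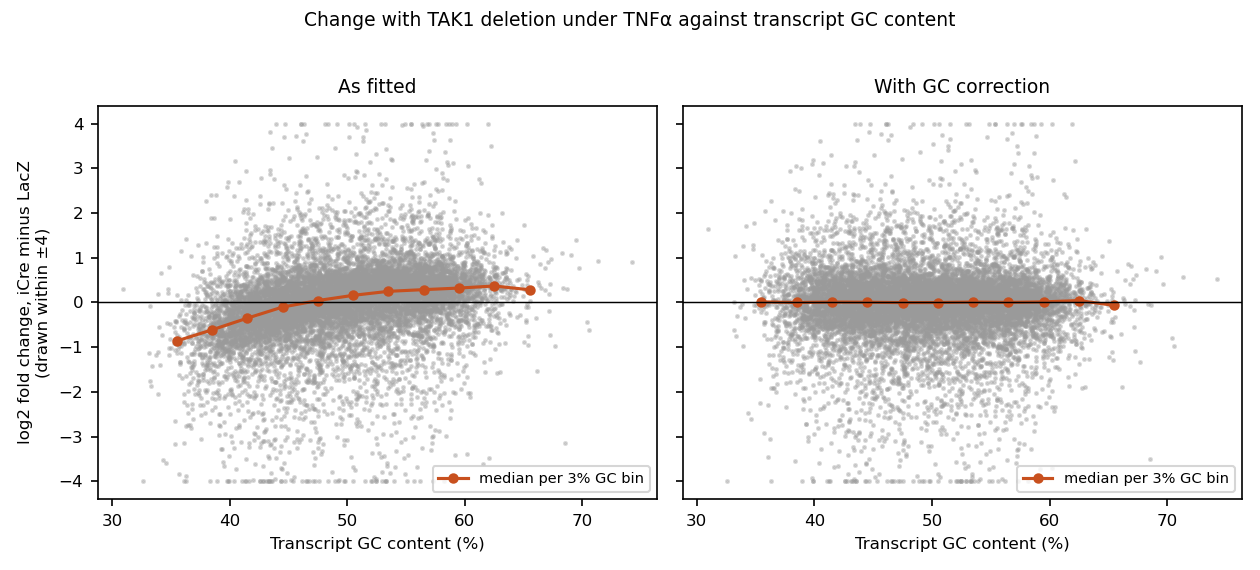
Log2 fold change with TAK1 deletion under TNFα (vertical axis) against transcript GC content in percent (horizontal axis) for protein-coding genes averaging at least 1 CPM, as fitted (left) and with GC correction (right); grey points are genes and orange points are medians of 3% bins. The medians rise from below 0 at low GC content to above 0 at high GC content on the left, and lie near 0 on the right.

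Guanylate-binding proteins, a chemokine and the inducible nitric oxide synthase were among the genes that fell furthest. Among protein-coding genes averaging at least 1 CPM and the same direction in all 4 pairs, the 10 lowest were *Gbp10*, *Aqp4*, *Nos2*, *Gm15056*, *Saa3*, *Olfr1033*, *Fmo1*, *Gbp4*, *Ccl20* and *Gbp5*. *Ccl20*, a chemokine that attracts cells bearing CCR6, was read at 6.58, 1.64, 8.21 and 11.0 CPM in LacZ replicates 1 to 4 and at 0.178, 0, 0.0584 and 0.162 CPM in iCre replicates 1 to 4. No library overlapped, and the log2 fold change was −6.12 (SE 0.366, adjusted p = 2.22e-05). It ranged over −6.63 to −5.79 when each pair was left out, and was −5.52 with GC correction. *Nos2*, the inducible nitric oxide synthase, stood at 4.44, 25.2, 20.5 and 10.7 CPM in LacZ against 0.0509, 0.333, 0.0389 and 0.0649 CPM in iCre libraries (log2 fold change −7.01, SE 0.355, adjusted p = 1.29e-05). Its highest iCre value was in replicate 2, and the fold change without that pair was −7.82. *Saa3*, an acute-phase serum amyloid A, had 799, 2290.2, 1072 and 949 CPM in LacZ against 17.2, 24.4, 8.33 and 6.94 CPM in iCre libraries (−6.52, adjusted p = 8.61e-06), so that the lowest LacZ library still exceeded the highest iCre library by far. *Aqp4*, a water channel, was left with 2 counts in all 4 iCre libraries together against 312 in LacZ, a ratio of 201 with a 95% interval of 55.2 to 1669 that covers counting error only. *Gm15056* had 4 counts in iCre against 333 in LacZ libraries. When each pair was left out, the fitted log2 fold change of *Aqp4* ranged over −9.37 to −6.54 and that of *Gm15056* over −7.26 to −6.10. *Olfr1033*, an olfactory receptor gene, and *Fmo1*, a flavin monooxygenase, fell to log2 fold changes of −6.32 and −6.30. *Olfr1033* was at −5.13 with GC correction, and *Fmo1* ranged over −7.55 to −5.92 when each pair was left out and was at −6.90 with DESeq2.

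At the other end, *Nptx1*, a neuronal pentraxin that clusters glutamate receptors at synapses, rose furthest. It was read at 1.05, 2.48, 1.91 and 1.44 CPM in LacZ against 137, 454, 871 and 654 CPM in iCre libraries (log2 fold change 8.13, SE 0.326, adjusted p = 8.05e-06). Replicate 1 had the lowest iCre value, which was still far above the highest LacZ value. *Sema7a*, a membrane-anchored semaphorin, had 0.373, 1.26, 0.553 and 1.02 CPM in LacZ against 27.3, 154, 112 and 195 CPM in iCre libraries (7.22, adjusted p = 1.25e-06). *Chrna1*, the muscle acetylcholine receptor subunit alpha, had 0.0339, 0.175, 0.0553 and 0.0379 CPM in LacZ against 3.46, 34.7, 2.84 and 4.44 CPM in iCre libraries. Replicate 2 stood far above the other iCre libraries for *Chrna1*, and the log2 fold change of 7.0 became 6.22 without that pair. *Slc14a1*, a urea transporter, was highest in replicate 2 of both groups, at 0.475, 9.75, 0.221 and 0.152 CPM in LacZ against 8.04, 389, 24.3 and 28.3 CPM in iCre libraries, so the groups overlapped although each pair rose (5.66, adjusted p = 2.32e-05). *Krt18*, a keratin of simple epithelia, had 0, 0, 0.111 and 0.114 CPM in LacZ against 2.29, 7.42, 5.74 and 5.12 CPM in iCre libraries (6.43). *Cxcr4*, the receptor for CXCL12, went from 0.159 ± 0.108 to 6.08 ± 1.19 CPM (5.34), and *Cacna1i*, a T-type calcium channel, from 0.104 ± 0.113 to 3.18 ± 1.64 CPM (5.04, over 4.77 to 5.63 when each pair was left out). *Tmem163*, *Prss22* and *Cpne7* completed the 10 highest, at 6.05, 5.79 and 5.18, with 5.30 to 6.87 for *Tmem163* and 5.23 to 7.16 for *Prss22* when each pair was left out.

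Of 14 genes of the TNF receptor 1 complex and its ubiquitin regulators, 1 was higher and 6 were lower (median −0.09, against 0.00 over all genes tested), beside 17.1% of all genes tested higher and 15.1% lower, with 2 higher without pair 1. For counts of list members in other fits, the shares of all genes were 13.2% higher and 14.3% lower with GC correction, and 14.8% and 12.6% without the replicate block. Of all 25210 genes tested, 4489 were higher and 4196 lower without pair 1, and 3516 and 3458 without pair 2. The numbers were 2817 and 2788 without pair 3 and 2899 and 2796 without pair 4, against 4321 and 3800 with all pairs. *Tnfrsf1a*, the receptor, was at 278 ± 20.3 CPM in LacZ against 314 ± 39.4 CPM in iCre (adjusted p = 0.185), and *Ripk1*, the kinase of the complex, at 72.0 ± 3.25 and 66.7 ± 1.19 CPM (adjusted p = 0.447). The 6 lower members were the feedback and ubiquitin regulators *Tnip1* (−2.14), *Birc2* (−1.92), *Tnfaip3* (−1.74), *Birc3* (−1.13), *Cyld* (−1.09) and *Rnf31* (−0.74). *Tnfaip3* encodes A20, which edits ubiquitin to end the signal. It was read at 296, 333, 229 and 226 CPM in LacZ against 102, 70.0, 93.1 and 58.4 CPM in iCre libraries (adjusted p = 8.90e-05), with no overlap. The adaptor *Traf5* was the higher member (1.21, adjusted p = 2.74e-04).

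Of 10 IκB kinases and kinases of the JNK and p38 pathways 3 were higher and 3 lower, beside 17.1% and 15.1% of all genes tested. Without pair 3, 1 was higher, and with GC correction 1 was lower. *Ikbkb*, which encodes IKKβ, was lower (−0.30, adjusted p = 0.00969), a call lost in 2 of the 4 fits that left out a pair. *Chuk*, for IKKα, and *Mapk8*, for JNK1, were at −0.53 and −0.64, but with GC correction neither passed (adjusted p = 0.140 and 0.335). *Map2k3*, a kinase for p38, was higher at 0.97 (adjusted p = 2.41e-04).

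Of 15 NF-κB subunits and inhibitors, 12 were lower and 1 was higher (median −0.69), beside 15.1% and 17.1% of all genes tested. The inhibitors that NF-κB induces fell with its subunits. *Nfkbia*, which encodes IκBα, had 319.6, 416, 233 and 245 CPM in LacZ against 163, 194, 176 and 139 CPM in iCre libraries (−0.81, SE 0.118, adjusted p = 9.62e-04). *Nfkbie*, for IκBε, fell (−1.41), and so did the A20-binding inhibitor *Tnip3* (−2.80, and −2.0 with GC correction) and the subunits *Rel* (−1.39), *Relb* (−1.08), *Nfkb1* (−0.69) and *Rela* (−0.44). The higher member was *Nfkbiz*, an atypical IκB in the nucleus (0.46, adjusted p = 0.00970), which did not pass with GC correction (adjusted p = 0.0531) or without the replicate block (adjusted p = 0.0643). *Nfkb2*, the precursor of the p52 subunit, did not pass (270.5 ± 24.7 CPM in LacZ against 285 ± 38.9 CPM in iCre, adjusted p = 0.580).

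Chemokines were among the genes that fell furthest. Of 14 CXC and CX3C chemokines 12 were lower and 1 was higher (median −3.46), and of 18 CC chemokines 10 were lower and 0 higher (median −1.57). These counts stand beside 15.1% of all genes tested lower and 17.1% higher. *Cxcl10*, which attracts T cells through CXCR3, had 56.3, 482, 285 and 428 CPM in LacZ against 14.9, 6.68, 7.67 and 5.93 CPM in iCre libraries. Pair 1 was the narrowest for *Cxcl10*, from the lowest LacZ to the highest iCre value, and the log2 fold change of −4.98 (SE 0.721, adjusted p = 9.18e-04) became −5.83 without it and −4.30 in the fit on all 40 libraries. *Cxcl11*, a ligand of the same receptor, had 1 count in the 4 iCre libraries together against 179 in LacZ, a ratio of 231 with a 95% counting interval of 40.9 to 9172. *Cxcl9*, another CXCR3 ligand, fell (−4.99, and −6.43 without pair 1). The neutrophil attractants *Cxcl5* and *Cxcl1* fell (−4.91 and −2.55), as did *Cxcl16* and *Cx3cl1* (−1.59 and −0.97), which are made as membrane proteins. *Ccl2*, the monocyte attractant, was read at 2069, 2230.3, 1747 and 1831 CPM in LacZ against 641, 1207, 709 and 677 CPM in iCre (−1.31, adjusted p = 2.06e-04). *Ccl19* fell (−6.07, over −7.45 to −5.74 when each pair was left out), *Ccl5* (−3.47), *Ccl8* (−2.55) and *Ccl7* (−1.74). *Cxcl14* was the higher member (8.91 ± 1.46 to 20.2 ± 4.78 CPM, adjusted p = 0.00206).

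Of 21 cytokines and colony-stimulating factors 6 were higher and 6 lower (median −0.38), beside 17.1% of all genes tested higher and 15.1% lower. *Il11*, a cytokine of the interleukin 6 family, had 1.05, 1.5, 0.857 and 0.871 CPM in LacZ against 5.29, 31.1, 35.8 and 68.0 CPM in iCre libraries (4.69, SE 0.523, adjusted p = 2.67e-04), with the lowest iCre value in replicate 1 and 5.30 without that pair. *Lif* and *Clcf1*, also ligands that signal through gp130, rose by 2.23 and 2.35. *Il6* itself did not pass, at 18.5 ± 1.48 CPM in LacZ against 14.8 ± 5.14 CPM in iCre (adjusted p = 0.188). Lower were the TNF family ligands *Tnfsf10* (−4.09, and −4.82 without pair 1), *Tnfsf15* (−3.19) and *Tnfsf13b* (−3.09), and the lymphocyte growth factor *Il15* (−2.41).

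Adhesion molecules and acute-phase proteins fell in 12 of 15 members, with 0 higher (median −2.67), beside 15.1% of all genes tested lower and 17.1% higher. *Vcam1*, which holds leukocytes through the integrin VLA4, had 6402, 5089.6, 6741 and 5934 CPM in LacZ against 2313, 921, 2031 and 1352 CPM in iCre libraries (−1.93, SE 0.172, adjusted p = 1.03e-04). *Icam1* fell (−2.17) and so did *Selp*, for P-selectin (−2.67, and −2.02 without pair 1). The acute-phase genes *Ptx3*, *Lbp* and *Hp* fell (−5.09, −4.35 and −4.10). Of 18 complement genes 14 were lower and 3 higher (median −1.63), beside the same shares of all genes. *C3*, the central component, had 6423, 6984, 5006 and 4795 CPM in LacZ against 2258, 890.5, 1405 and 646 CPM in iCre libraries (−2.28, adjusted p = 2.82e-04), *Cfb* and *C2* fell (−3.8 and −3.96), and *Masp1*, a protease of the lectin pathway, rose by 1.96.

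Sensors of microbial products and interleukin 1 were lower in 11 of 23 members and higher in 3 (median −0.44), beside 15.1% and 17.1% of all genes tested. Without pair 3 or pair 4, 7 were lower, and without the replicate block 1 was higher. *Tlr2*, a receptor for bacterial lipoproteins, fell furthest, at 362, 253, 330.3 and 315 CPM in LacZ against 42.0, 10.7, 20.7 and 16.2 CPM in iCre libraries (−3.96, SE 0.226, adjusted p = 1.78e-05). *Tlr3* fell (−2.49), *Tlr4* (−0.92), the inhibitory kinase-like gene *Irak3* (−2.28) and the adaptor *Myd88* (−0.89). *Il1rl1*, the receptor for interleukin 33, was at 2.86 (adjusted p = 2.87e-04), and was at 1.61 and did not pass without the replicate block (adjusted p = 0.581).

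Interferon-stimulated genes and the antigen presentation machinery fell in every member tested. All 36 interferon-stimulated genes tested were lower (median −2.41) and all 15 genes of MHC class I and the immunoproteasome were too (median −1.94), beside 15.1% of all genes tested. With GC correction all 36 and all 15 were lower again. *Gbp2*, a guanylate-binding GTPase, had 1253, 2088, 1506 and 1530.4 CPM in LacZ against 153, 50.9, 59.5 and 60.7 CPM in iCre libraries, with iCre replicate 1 highest (−4.42, SE 0.353, adjusted p = 6.43e-05). *Gbp5* had 303, 522, 418 and 381 CPM in LacZ against 18.4, 2.88, 5.41 and 3.66 CPM in iCre libraries (−6.09, and −6.79 without pair 1), and *Gbp4* and *Gbp10* fell (−6.18 and −8.02, with −7.18 to −5.68 for *Gbp4* when each pair was left out). Guanylate-binding protein genes include similar copies, and how the counting treated reads that match several genes is not given in the sources used here, so single members of the family are uncertain. *Ifit1*, which binds foreign RNA, had 497, 743, 672 and 914 CPM in LacZ against 139, 32.6, 43.7 and 84.1 CPM in iCre libraries (−3.44, adjusted p = 2.92e-04). *Mx1* fell (−4.63, over −5.85 to −4.03 when each pair was left out and −3.54 in the fit on all 40 libraries), *Isg15* (−2.27), and the transcription factors *Irf1* and *Irf9* (−2.10 and −0.52). *H2-K1*, a classical class I heavy chain, had 1615, 1572, 1959.8 and 1963 CPM in LacZ against 655, 247, 414 and 492 CPM in iCre libraries (−2.03, adjusted p = 1.49e-04), and *B2m*, its light chain, 2666, 2860.2, 2914 and 2987 and 1761, 904, 1081 and 1432 CPM (−1.17, adjusted p = 9.52e-04). The immunoproteasome subunits *Psmb9* and *Psmb8* fell (−3.32 and −2.55), the peptide transporter *Tap1* (−1.88) and the activator of class I genes *Nlrc5* (−1.63). Class I heavy chain genes include similar copies too, so single ones such as *H2-K1* are as uncertain as single guanylate-binding protein genes.

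Promoters of some of these genes, of *Il11* and of *Map3k7* follow, to show matches to motifs bound by NF-κB, interferon-regulated factors and AP-1. Only entries with a match before the start are printed, so each sequence holds one by selection. In RefSeq's promoter table for GRCm38.p6, each entry covers 250 bases before to 50 after a start. Both strands were searched for NF-κB-type motifs (GGG, any 2 bases, TTTCC, and also GGAANTTCC, which can overlap it), the interferon-response motif (GAAA, any 2 bases, GAAA) and AP-1 motifs (TGACTCA or TGAGTCA). In the sequences that follow, letters in capitals are matches, read 5′ to 3′ along the gene's strand.
Ccl20, chr1:83116671-83116710, plus strand: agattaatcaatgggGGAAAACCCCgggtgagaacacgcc
Cxcl1, chr5:90891141-90891198, plus strand: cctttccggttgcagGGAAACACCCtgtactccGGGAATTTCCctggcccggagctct
Cxcl10, chr5:92348942-92349117, minus strand: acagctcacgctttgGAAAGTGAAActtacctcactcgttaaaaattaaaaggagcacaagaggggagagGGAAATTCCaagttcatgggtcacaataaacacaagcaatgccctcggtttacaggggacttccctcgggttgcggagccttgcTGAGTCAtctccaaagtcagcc
Icam1, chr9:21015772-21015810, plus strand: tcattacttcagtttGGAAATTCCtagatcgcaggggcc
Saa3, chr7:46715777-46715816, minus strand: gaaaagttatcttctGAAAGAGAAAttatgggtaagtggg
Gbp5, chr3:142496754-142496881, plus strand: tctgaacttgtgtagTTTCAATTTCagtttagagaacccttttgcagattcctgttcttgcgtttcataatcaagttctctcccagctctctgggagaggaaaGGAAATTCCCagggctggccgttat
Gbp2, chr3:142620546-142620628, plus strand: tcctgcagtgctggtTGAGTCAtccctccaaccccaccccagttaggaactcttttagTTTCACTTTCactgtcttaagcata
Ifit1, chr19:34640770-34640828, plus strand: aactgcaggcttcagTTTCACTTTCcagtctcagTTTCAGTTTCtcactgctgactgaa
Isg15, chr4:156200860-156200911, minus strand: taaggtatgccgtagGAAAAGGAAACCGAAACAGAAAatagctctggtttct
B2m, chr2:122147533-122147585, plus strand: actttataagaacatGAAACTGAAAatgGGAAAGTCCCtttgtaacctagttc
Il11, chr7:4778218-4778254, minus strand: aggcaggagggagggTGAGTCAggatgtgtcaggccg
Map3k7, chr4:31964000-31964039, plus strand: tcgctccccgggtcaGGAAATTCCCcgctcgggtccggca

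The single match of *Ccl20* starts at position −80 from the gene's start, and those of *Cxcl1* at −89 and −71. *Gbp5* and *B2m* hold both an NF-κB-type and an interferon-response match, and *Cxcl10* holds these and an AP-1 match. *Ifit1* holds 2 interferon-response matches and *Isg15* 3 that overlap, *Gbp2* holds an AP-1 and an interferon-response match, and *Saa3* an interferon-response match alone. *Il11*, which rose, holds an AP-1 match in the second of its entries. *Map3k7* holds an NF-κB-type match too. Of all 32851 promoters 2.46% hold an NF-κB-type motif, 3.44% the interferon-response motif and 5.2% an AP-1 motif. NF-κB-type motifs were in 4 of 10 promoters of the CXC and CX3C chemokines, 4 of 17 of the CC chemokines and 6 of 17 of the NF-κB genes found in the table. The interferon-response motif was in 18 of 31 promoters of the interferon-stimulated genes. An AP-1 motif was in 0 of 18 promoters of the ERK feedback genes and EGF-type ligands and 0 of 24 of the AP-1 and other early factors. Both lists mostly rose, and their promoters held an NF-κB-type motif in 2 of 18 and 1 of 24. Among the CXC and CX3C chemokines, which mostly fell, an AP-1 motif was in 2 of 10 promoters. Among genes averaging at least 1 CPM, the interferon-response motif stood in 9.87% of promoters of those lower by at least 1 on the log2 scale and in 2.65% of those higher by at least 1, an NF-κB-type motif in 4.55% and 3.1%, and an AP-1 motif in 4.98% and 7.63%. Over the promoters of all genes averaging at least 1 CPM, these shares were 3.16%, 2.64% and 3.86%. These are matches of letters and not measured binding.

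**Figure D3:**
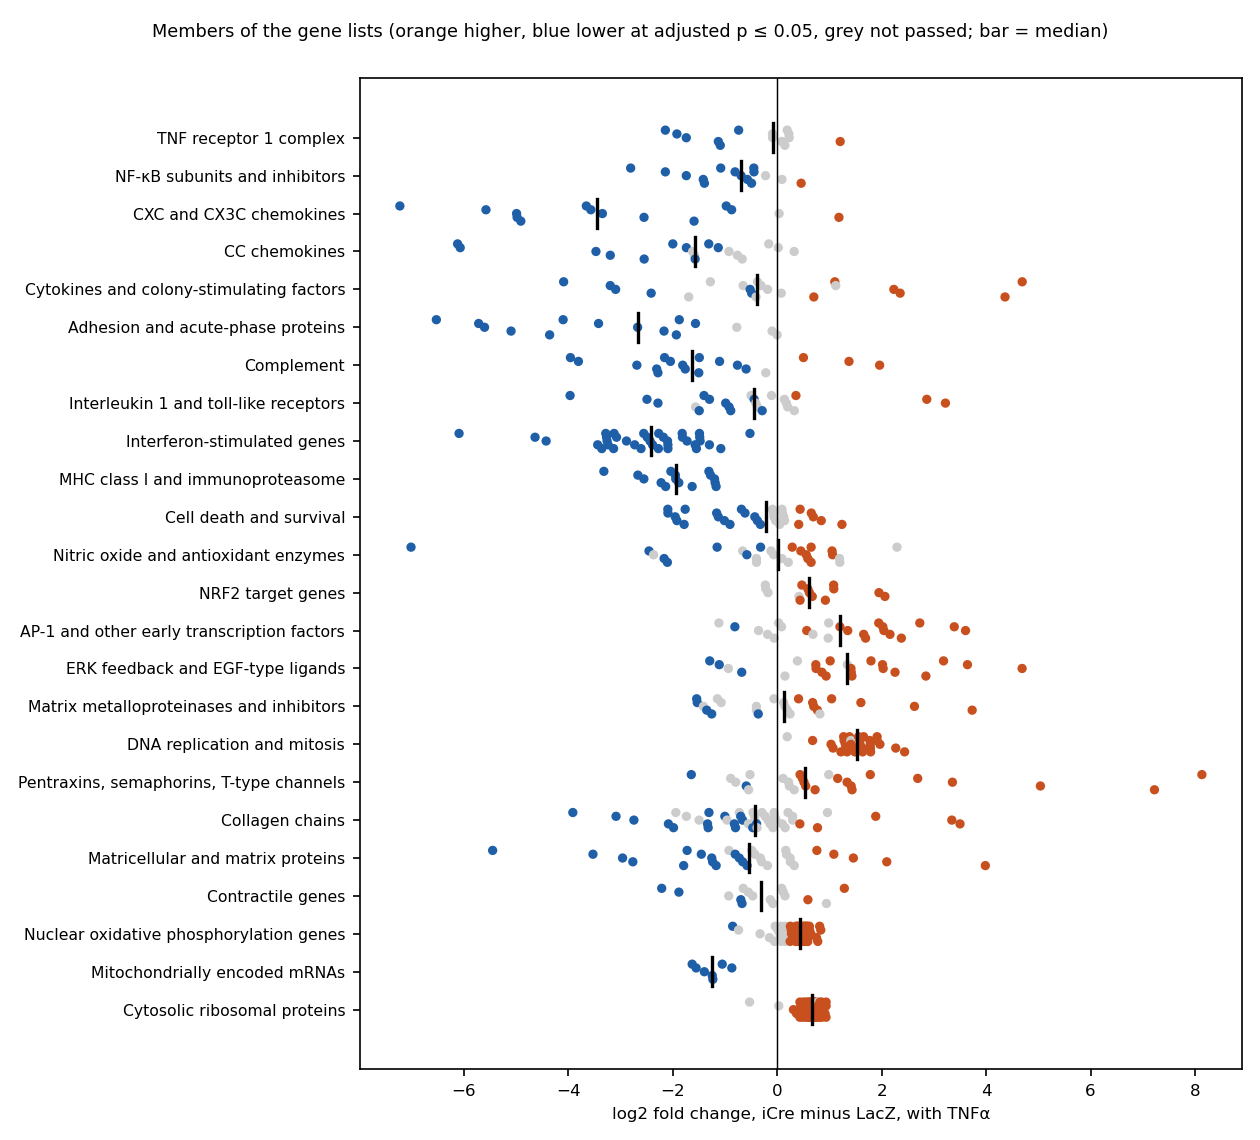
Log2 fold change with TAK1 deletion under TNFα (horizontal axis) of every tested member of 24 gene lists (rows), each point a gene, orange where higher and blue where lower at an adjusted p of at most 0.05, grey where not passed, with a black bar at the median. Interferon-stimulated and MHC class I genes lie wholly below 0, and replication and mitosis genes lie above 0.

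Of 30 genes of cell death and survival 15 were lower and 6 higher (median −0.21), beside 15.1% of all genes tested lower and 17.1% higher. *Bid*, a BH3-only protein cut by caspase-8, had 113, 65.1, 92.7 and 89.4 CPM in LacZ against 31.0, 15.4, 20.0 and 18.1 CPM in iCre libraries (−2.09, SE 0.0940, adjusted p = 9.25e-06). The death receptor *Fas* fell (−1.95), the inflammatory caspase *Casp4* (−1.76), the pore-forming *Gsdmd* (−1.01) and the necroptosis effector *Mlkl* (−0.68). With GC correction *Casp4* was at −1.09. The survival gene *Bcl2l1* rose by 0.84 and *Casp8* by 0.65 (adjusted p = 9.84e-04 and 3.35e-04). The TNF family receptors *Tnfrsf12a*, for TWEAK, and *Tnfrsf21*, also called death receptor 6, rose by 1.99 and 2.08. Of 23 p53 target genes 11 were lower and 5 higher, with *Trp53inp1* at −1.42 (−0.82 with GC correction) and *Mdm2* at 0.58. Without the replicate block 7 p53 target genes were lower, and 2 were higher with GC correction and 3 without pair 4.

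Of 26 nitric oxide and antioxidant enzymes 8 were higher and 7 lower, beside 17.1% of all genes tested higher and 15.1% lower, with 5 higher without the replicate block, without pair 3 or without pair 4. Besides *Nos2*, the mitochondrial superoxide dismutase *Sod2* fell, from 423, 476, 349 and 334 CPM in LacZ to 79.0, 128, 93.6 and 68.8 CPM in iCre libraries (−2.10, adjusted p = 1.62e-05), and so did the arginine transporter *Slc7a2* (−2.16) and *Cybb*, the phagocyte oxidase subunit (−2.45). *Prdx1*, a peroxiredoxin, and *Ass1*, which makes arginine's precursor, rose by 1.05 and 1.06. Of 14 NRF2 target genes 10 were higher and none lower (median 0.60), with 5 higher without pair 3 and 6 without pair 4. *Hmox1*, heme oxygenase 1, had 97.9, 149, 107 and 165 CPM in LacZ against 299, 576, 434 and 724 CPM in iCre libraries (1.95, SE 0.106, adjusted p = 1.61e-05), *Nqo1* rose by 2.06 and *Srxn1* by 1.08.

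*Ptgs1*, cyclooxygenase 1, had 44.9, 92.7, 91.4 and 86.2 CPM in LacZ against 172, 275, 477 and 360.2 CPM in iCre libraries (2.01, SE 0.129, adjusted p = 2.76e-05), with no overlap. *Ptgs2*, cyclooxygenase 2, was at 43.1 ± 46.1 CPM in LacZ against 129 ± 71.8 CPM in iCre (1.87, adjusted p = 7.26e-04), and did not pass without the replicate block (adjusted p = 0.120). Of 17 genes of prostanoid and leukotriene synthesis 6 were higher and 2 lower (median 0.46), beside 17.1% and 15.1% of all genes tested. The lower members numbered 1 without the replicate block, with GC correction and without pair 2, pair 3 or pair 4. Of 24 matrix metalloproteinases and inhibitors 8 were higher and 5 lower (median 0.14), beside 17.1% of all genes tested higher and 15.1% lower, with 3 lower without the replicate block or without pair 4. *Mmp9*, a gelatinase, had 16.1, 22.1, 19.0 and 15.7 CPM in LacZ against 58.0, 40.6, 44.6 and 82.4 CPM in iCre libraries (1.6, adjusted p = 6.56e-04). *Mmp10*, a stromelysin, had 0.543, 1.71, 1.13 and 1.29 CPM in LacZ against 1.86, 68.5, 3.33 and 3.34 CPM in iCre libraries, and its fold change of 2.63 (adjusted p = 0.0133) was 1.55 without pair 2 and 4.06 without the replicate block. *Timp1*, a metalloproteinase inhibitor, rose by 1.04. *Mmp3*, another stromelysin, was at −1.54 (adjusted p = 0.0240), and did not pass without the replicate block (adjusted p = 0.166), without pair 3 or without pair 4.

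Immediate-early and ERK-responsive genes mostly rose, in counts that stand beside 17.1% of all genes tested higher and 15.1% lower. Of 23 AP-1 and other early transcription factors 13 were higher and 1, *Klf6*, was lower (median 1.2), against 11 and 3 with GC correction and 2 lower without pair 3. Of 23 ERK feedback genes and EGF-type ligands 16 were higher and 3 lower (median 1.34), with 1 lower without the replicate block. *Fosl1*, the AP-1 subunit FRA1, had 12, 28.4, 15.8 and 20.6 CPM in LacZ against 68.2, 138, 129 and 167 CPM in iCre libraries (2.73, SE 0.139, adjusted p = 1.29e-05). *Etv4*, an ETS factor that ERK induces, had 3.70, 2.97, 3.01 and 6.44 CPM in LacZ against 23, 65.4, 52.7 and 62.9 CPM in iCre libraries (3.64, adjusted p = 5.25e-05). *Egr3* and *Nr4a1* rose by 3.61 and 3.39 (3.27 to 4.29 for *Egr3* when each pair was left out), *Egr1* by 2.16, *Fos* by 2.04, *Jun* by 1.94 and *Myc* by 1.2. The ERK phosphatases *Dusp5* and *Dusp6* rose by 3.19 and 2.03, the feedback inhibitor *Spry4* by 1.80, *Etv5* by 2.26 and the EGF receptor ligands *Hbegf* and *Areg* by 2.85 and 4.69.

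Replication and mitosis genes were higher in 28 of 30 members, with none lower (median 1.52), beside 17.1% and 15.1% of all genes tested. Their median was 1.05, 2.88, 1.07 and 1.24 in pairs 1 to 4 alone. Without pair 2 it was 1.12, and 28 were higher again. *Mki67*, a marker of cycling cells, had 52.0, 18.2, 96.6 and 84.2 CPM in LacZ against 137, 209.8, 173 and 171 CPM in iCre libraries (1.66, SE 0.388, adjusted p = 0.0103). Replicate 2 had both the lowest LacZ and the highest iCre value, and without that pair the fold change was 1.08. *Aurkb*, a mitotic kinase, rose by 2.44 (1.84 without pair 2), *Mcm5*, a helicase subunit, by 2.27 and *Cdk1* by 1.77. Of 77 cytosolic ribosomal protein genes 74 were higher and none lower (median 0.67), and of 77 nuclear genes of oxidative phosphorylation 58 were higher and 1 lower (median 0.43). With GC correction the nuclear counts were 38 and 0. All 7 mitochondrially encoded mRNAs tested were lower (median −1.24), and mitochondrially encoded genes took 0.785 to 0.919% of counts in LacZ and 0.302 to 0.549% in iCre libraries. *mt-Co1* had 3349.5, 3481, 3319 and 3076 CPM in LacZ against 1945, 1452, 1195 and 1102 CPM in iCre libraries (−1.23, adjusted p = 2.92e-04). With GC correction 4 of the 7 were lower (median −0.53). Of 24 genes of glycolysis and the hypoxia response 15 were higher and 6 lower, beside 17.1% and 15.1% of all genes tested. With GC correction 10 were higher and 6 lower, beside 13.2% and 14.3%. In this list *Pkm* (0.97) and *Slc2a1* (0.93) rose, and the vasodilator peptide gene *Adm* fell (−2.69). Of 346 *Zfp* zinc finger genes 130 were lower and 50 higher (median −0.22), beside 15.1% and 17.1% of all genes tested. With GC correction 86 were lower and 36 higher, beside 14.3% and 13.2%. Without pair 3, 22 were higher, and without pair 4, 23, where 2817 and 2899 of all 25210 genes tested were higher.

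Of 26 neuronal pentraxins, semaphorins and T-type calcium channels, 15 were higher and 2 lower (median 0.53), beside 17.1% and 15.1% of all genes tested, against 9 and 2 with GC correction, with 1 lower without the replicate block. The list was drawn up because some of its genes, *Nptx1* among them, rose furthest, so the choice itself favoured a high count. *Nptx2* rose by 3.36 and the repulsive guidance gene *Sema3a* by 2.69, whereas *Sema3c* fell (−1.64).

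Of 44 collagen chains 15 were lower and 5 higher (median −0.43), beside 15.1% and 17.1% of all genes tested, and of 30 matricellular and matrix proteins 14 were lower and 5 higher (median −0.53). Without the replicate block 8 collagen chains and 8 matricellular proteins were lower, beside 12.6% of all genes tested, and 4 collagen chains and 3 matricellular proteins higher. The collagen chains higher numbered 3 with GC correction or without pair 3, and 2 without pair 4. *Col3a1*, a fibrillar collagen, had 14408, 8530.3, 12619 and 11784 CPM in LacZ against 6670.0, 3346, 2047 and 1544 CPM in iCre libraries (−1.98, SE 0.309, adjusted p = 0.00133). *Col1a1* and *Col1a2* fell (−1.0 and −0.70), and *Col2a1*, the cartilage collagen, rose by 3.50. *Ogn*, a small leucine-rich proteoglycan, had 151, 402, 161 and 124 CPM in LacZ against 18.3, 2.59, 3.15 and 1.88 CPM in iCre libraries (−5.45, adjusted p = 3.26e-04). Its highest values were in LacZ replicate 2 and iCre replicate 1, its fold change was −6.33 without pair 1 and −4.81 without pair 2, and it was −4.59 with GC correction. *Aspn* fell (−3.53, over −4.51 to −2.67 when each pair was left out, −2.48 with GC correction) and the crosslinking enzyme *Lox* (−1.79). *Has1*, a hyaluronan synthase, rose by 3.99. *Spp1*, osteopontin, had 603, 2193, 1255 and 1333 CPM in LacZ against 1934, 10515, 5138 and 6728 CPM in iCre libraries, so the groups overlapped although every pair rose (2.10, adjusted p = 3.18e-05). *Acta2*, the smooth muscle actin of myofibroblasts, had 749, 809, 551 and 437 CPM in LacZ against 285, 98.7, 142 and 75.4 CPM in iCre libraries (−2.21, SE 0.237, adjusted p = 2.23e-04). Of 16 contractile genes 4 were lower and 2 higher, beside 15.1% and 17.1% of all genes tested, and *Smtn*, smoothelin, rose by 1.29. Of 25 TGFβ ligands, SMADs and targets 9 were lower and 7 higher, beside 15.1% and 17.1% of all genes tested, with 4 higher without the replicate block. *Tgfb2* had 64.7, 25.8, 50.1 and 38.0 CPM in LacZ against 24.7, 2.40, 6.31 and 4.51 CPM in iCre libraries (−2.67, adjusted p = 2.87e-04), the BMP target *Id2* fell (−1.57), and *Tgfb1* and the activin gene *Inhba* rose by 0.77 and 1.77. Among 11 fibroblast markers 7 were lower and 2, *Vim* and *Thy1*, higher (0.79 and 1.05), beside 15.1% and 17.1% of all genes tested. *Tcf21*, a transcription factor of cardiac fibroblasts, was at −2.14 (adjusted p = 9.67e-04) and did not pass without the replicate block (adjusted p = 0.113), nor did *Postn* (−2.76, −1.91 with GC correction, adjusted p = 0.00198, −3.36 to −2.26 when each pair was left out, −2.08 with adjusted p = 0.0507 without the block).

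The counts that follow stand beside 17.1% of all genes tested higher and 15.1% lower. Of 24 genes of cholesterol synthesis and uptake 5 were lower and none higher, with 10 lower with GC correction, 11 without pair 3 and 3 without the replicate block. Of 12 heat-shock chaperones 6 were higher and 1 lower, with 2 lower with GC correction. Of 12 regulators of cytokine mRNA decay 2 were higher and 5 lower, and without pair 3 or pair 4 none was higher. Of 17 receptors of the TNF receptor superfamily 4 were higher and 4 lower, with 2 lower without pair 3 or pair 4. Of 20 genes of endoplasmic reticulum folding and stress 8 were higher and 5 lower, against 1 and 2 without the replicate block. With GC correction 3 were lower, without pair 3 or pair 4, 4 were higher, and without pair 3, 2 were lower. Of 20 ATF4 targets and serine synthesis genes 1 was higher and 7 lower. Without the replicate block none was higher and 1 was lower, without pair 2, pair 3 or pair 4 none was higher, without pair 1, 3 were higher, and without pair 3, 4 were lower.

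**Figure D4:**
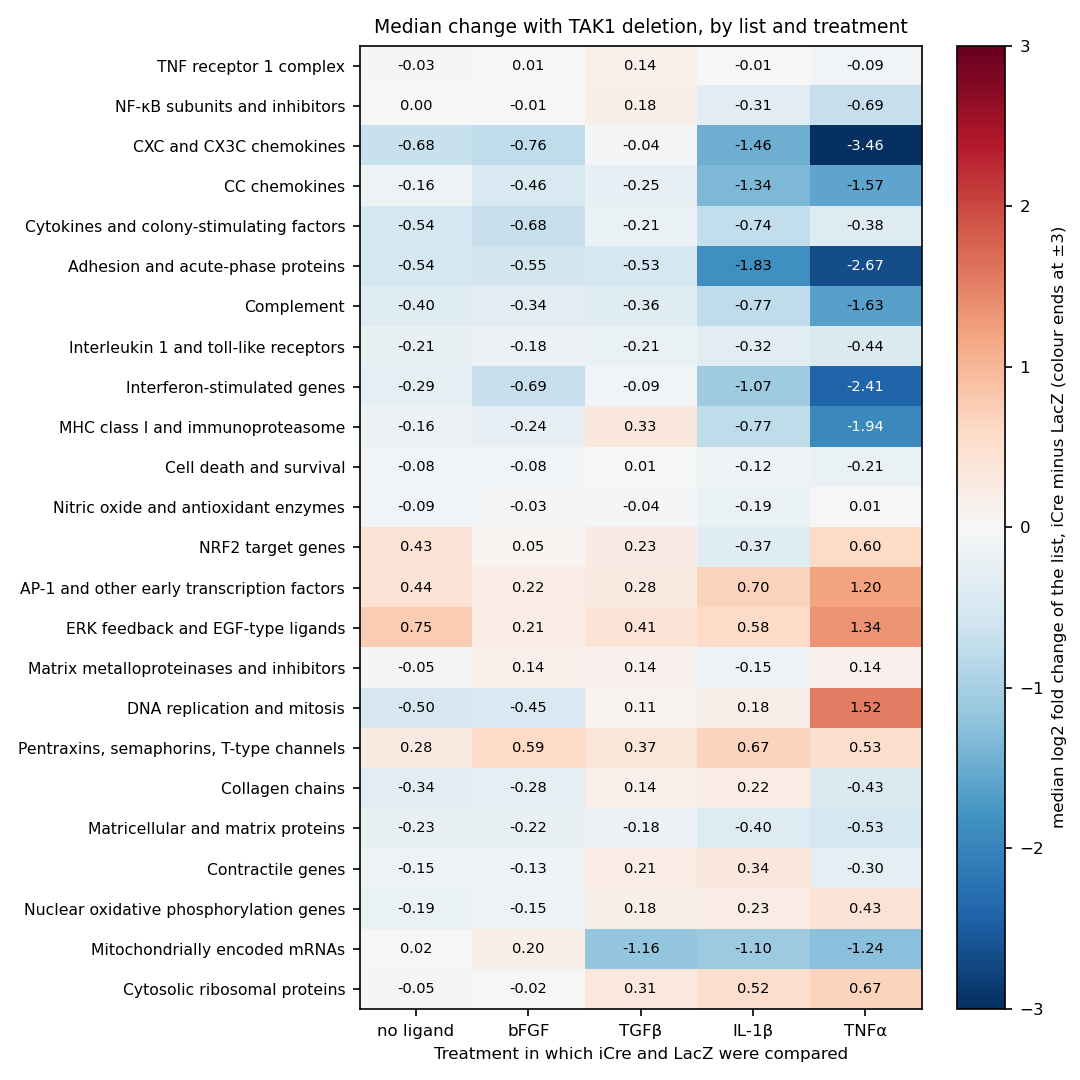
Median log2 fold change with TAK1 deletion of each of 24 gene lists (rows) in fibroblasts without ligand and with bFGF, TGFβ, IL-1β or TNFα (columns), with the value printed in each cell and coloured from blue (lower in iCre) to red (higher in iCre). Each column compares separate libraries, and the TNFα column holds the lowest medians for interferon-stimulated genes at −2.41 and the highest for replication and mitosis genes at 1.52.

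To ask which changes differed from those of TAK1 deletion without ligand, the difference of the log2 fold changes was tested over 16 libraries. It was positive for 3334 genes (13.2%) and negative for 2999 (11.9%), 6333 in all, against 4054 without the replicate block, 3958 without replicate 3 and 4165 without replicate 4. By the same fit on their own 8 libraries, the deletion without ligand raised 1713 genes (6.79%) and lowered 1942 (7.7%). The negative end was held by *Gbp10* (−6.37, adjusted p = 2.57e-04), *Ccl20* (−6.05, adjusted p = 0.00258), *Acod1*, which makes itaconate (−5.95, adjusted p = 0.00347), *Apol11b* (−5.91, adjusted p = 0.0344) and *Nos2* (−5.73, adjusted p = 0.00628). When each pair was left out, the interaction ranged over −7.81 to −3.76 for *Ccl20*, not passing without pair 3, over −7.66 to −5.06 for *Nos2*, not passing without pair 4 or in the fit on all 40 libraries, and over −7.15 to −4.72 for *Apol11b*, not passing without pair 3, without pair 4 or without the replicate block. *Gbp10* ranged over −7.08 to −6.15 and *Acod1* over −6.61 to −5.47. The positive end was held by *Prss22* (5.03, 3.59 to 6.86 when each pair was left out), *Chrna1* (4.63), *Cxcr4* (4.58), *Sema7a* (4.45) and *Nptx1* (4.39, adjusted p = 6.83e-05).

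The levels without ligand show where these differences lay. *Ccl20* was at 0.0597 ± 0.0972 CPM in LacZ against 0.0386 ± 0.0564 CPM in iCre fibroblasts without ligand, near 0 in both. *Nptx1* already differed without ligand, at 5.80 ± 5.46 CPM in LacZ against 84.4 ± 53.8 CPM in iCre fibroblasts (3.94, adjusted p = 2.41e-09 over the 8 libraries without ligand). *Ccl2* was at 15.4 ± 8.29 CPM in LacZ against 26.5 ± 12.8 CPM in iCre without ligand, far below its level with TNFα in either group. The interaction was negative for 27 of 36 interferon-stimulated genes, 14 of 15 genes of MHC class I and the immunoproteasome, 9 of 14 CXC and CX3C chemokines, 9 of 15 adhesion and acute-phase genes and 8 of 15 NF-κB subunits and inhibitors. It was positive for 28 of 30 replication and mitosis genes, 73 of 77 ribosomal protein genes and 62 of 77 nuclear genes of oxidative phosphorylation. These counts stand beside 13.2% of all genes tested positive and 11.9% negative.

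IL-1β, given at 15 ng/ml, also signals through TAK1 but by another receptor, and its deletion contrast shares no library with that of TNFα. The interaction over 16 libraries was positive for 1200 genes (4.76%) and negative for 1500 (5.95%), 2700 in all. Without the replicate block it passed for 342 genes, and for 1365 with DESeq2 without the block. Leaving out replicates 1 to 4 in turn, which also leaves fewer libraries, it passed for 3612, 2094, 683 and 1204 genes. The number of calls thus depended strongly on the fit, and the cause was not tested. The negative end was held by *Aqp4* (−6.41), *Adamtsl1* (−5.41), *Slco2b1* (−5.33), the serotonin transporter *Slc6a4* (−4.87) and *Cntn2* (−4.79). The positive end was held by *Chrna1* (4.12), the placental growth factor *Pgf* (4.02), *Mmp10* (3.41), the death receptor *Tnfrsf21* (3.40) and *Acsbg1* (3.21). Without the block, *Aqp4*, *Adamtsl1*, *Cntn2*, *Chrna1* and *Mmp10* did not pass. When each pair was left out, the interaction ranged over −7.23 to −5.70 for *Aqp4*, −6.35 to −4.82 for *Adamtsl1*, −5.94 to −4.12 for *Cntn2* and 2.35 to 3.75 for *Mmp10*. *Chrna1* and *Mmp10* did not pass without pair 3 or pair 4, nor did *Aqp4* without pair 1, pair 3 or pair 4 or in the fit on all 40 libraries. With IL-1β *Aqp4* was at 0.0311 ± 0.0470 CPM in LacZ against 0.0140 ± 0.0280 CPM in iCre fibroblasts, near 0 in both.

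By list, the interaction against IL-1β was positive for 22 of 30 replication and mitosis genes, 15 of 24 genes of glycolysis and the hypoxia response, 11 of 23 ERK feedback genes and EGF-type ligands and 10 of 14 NRF2 target genes. It was negative for 10 of 15 genes of MHC class I and the immunoproteasome, 13 of 36 interferon-stimulated genes and 9 of 44 collagen chains. Also negative were 7 of 15 NF-κB subunits and inhibitors, 7 of 15 adhesion and acute-phase genes, 6 of 18 complement genes and 5 of 14 genes of the TNF receptor 1 complex. These counts stand beside 4.76% of all genes tested positive and 5.95% negative. *Mki67* was at 21.2 ± 10.5 CPM in LacZ against 30.7 ± 22.5 CPM in iCre fibroblasts with IL-1β (deletion 0.39, adjusted p = 0.0702 over the 8 libraries with IL-1β), and its interaction was 1.30 (adjusted p = 0.110). *Nos2* went from 357 ± 117 to 9.46 ± 4.0 CPM with deletion under IL-1β and from 15.2 ± 9.38 to 0.122 ± 0.141 CPM under TNFα (interaction −1.68, adjusted p = 0.215). *Tlr2* was at −2.84 with IL-1β (adjusted p = 4.29e-12) and −3.96 with TNFα (interaction −1.07, adjusted p = 0.0219).

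**Figure D5:**
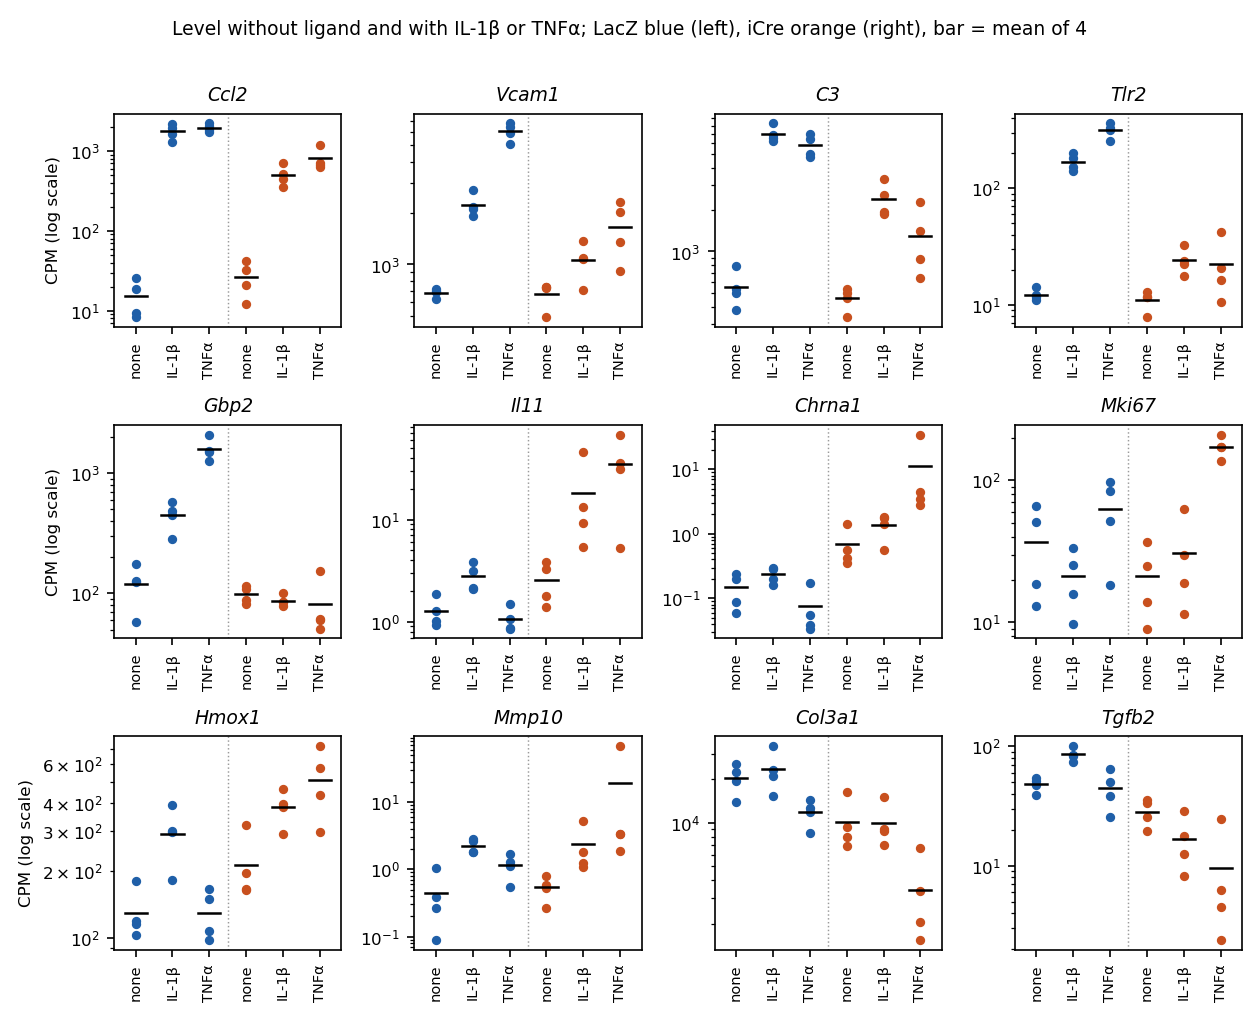
Level of 12 genes in the 4 libraries each of LacZ (blue) and iCre (orange) fibroblasts without ligand, with IL-1β and with TNFα, in CPM on a log axis, with a black bar at the mean. *Ccl2*, *Vcam1*, *C3* and *Tlr2* are high with either ligand in LacZ and lower in iCre, *Mki67* is highest in TNFα-treated iCre fibroblasts, and 1 TNFα-treated iCre library lies apart for *Chrna1* and *Mmp10*.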

How the data were processed

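RNA was measured in 40 libraries of mouse cardiac fibroblasts, 4 in each of 10 groups. Per the labels and the study's methods, single-end reads of poly-A RNA were checked with FastQC, aligned to mm10 with STAR and counted per gene with HTSeq 0.10.0, and the authors deposited raw counts, which are whole numbers without normalization. The labels name FastQC 0.10.1 and the methods another version, the library kit is also named differently in them, and the strand setting of the counting is not given in the sources used here, so reads of overlapping antisense genes cannot be told apart. Of 55414 gene identifiers, 52133 were found in GENCODE M21, which gave symbols and transcript GC content.

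Genes with at least 10 counts over the 40 libraries were tested with edgeR 4.0.16 (TMM, quasi-likelihood test, Benjamini-Hochberg adjustment over all genes tested, threshold 0.05) in R 4.3.3, with group and replicate number as terms. Samples with the same number deviated together from their group means (r = 0.37, 0.63, 0.33 and 0.49 over 13090 genes for numbers 1 to 4), so the numbers were taken to pair the libraries. Libraries with different numbers had r from −0.38 (iCre 2 with LacZ 3) to 0.18 (iCre 1 with LacZ 3). Levels in CPM use TMM over all 40 libraries. For the GC correction, each library's lowess trend (span 0.3) of log2 CPM deviations on GC content entered the fit as an offset, for the 24970 genes with a value. Alternatives were no replicate block, DESeq2 1.42.0 with and without the block, RLE scaling, other filters, a fit on all 40 libraries and leaving out each pair. The scripts were tested on simulated data. Intervals of count ratios cover counting error only.

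The comparison, the gene lists and the tests were chosen with earlier results of these data known. Named are *Map3k7*, *Nptx1* and *Ccl20*, the 10 largest changes in each direction among protein-coding genes averaging at least 1 CPM and the same direction in all 4 pairs, for each list up to 4 members past the threshold per direction and the members that define it, and the 5 largest interactions in each direction. A result that this rule would add is not reported here. Promoter sequences come from RefSeq for GRCm38.p6. Whether samples came from separate hearts is stated only as biological replicates, so the p-values measure the spread between these samples.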

Additional observations from a re-analysis of the deposited data

Results flagged for a closer look

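In 12 of 76 groups of 4 library values, taken over the 38 genes whose library values are given, 1 library lay apart from the other 3 by more than Dixon's critical value for 4 values at the 95% level. Independent, normally distributed values would give about 1 such group in 20. These values are CPM of selected genes in the same libraries, so that rate is no reference for the count. Of the 12, 8 were in a replicate 2. In iCre replicate 2 the highest values were *Nos2* at 0.333 CPM, *Ccl2* at 1207 CPM, *Chrna1* at 34.7 CPM, *Slc14a1* at 389 CPM and *Mmp10* at 68.5 CPM. In LacZ replicate 2 they were *Chrna1* at 0.175 CPM, *Slc14a1* at 9.75 CPM and *Ogn* at 402 CPM. In iCre replicate 1 they were *Gbp2* at 153 CPM, *Gbp5* at 18.4 CPM and *Ogn* at 18.3 CPM. *Ptgs1* was lowest in LacZ replicate 1, at 44.9 CPM. For *Chrna1* and *Slc14a1* the same replicate number stood high in both groups, so the fold change within the pair was less affected than either level. What set these libraries apart was not tested.

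The change with deletion under TNFα differed from that without ligand, by the interaction term, for *Gbp10* (−6.37), *Ccl20* (−6.05), *Acod1* (−5.95), *Apol11b* (−5.91) and *Nos2* (−5.73) in the negative direction. In the positive direction it differed for *Prss22* (5.03), *Chrna1* (4.63), *Cxcr4* (4.58), *Sema7a* (4.45) and *Nptx1* (4.39). Against the change with IL-1β, it differed for *Aqp4* (−6.41), *Adamtsl1* (−5.41), *Slco2b1* (−5.33), *Slc6a4* (−4.87) and *Cntn2* (−4.79) in the negative direction. In the positive direction it differed for *Chrna1* (4.12), *Pgf* (4.02), *Mmp10* (3.41), *Tnfrsf21* (3.40) and *Acsbg1* (3.21). All are differences of log2 fold changes. *Aqp4* was near 0 in both groups with IL-1β, and its difference did not pass without the replicate block, without pair 1, pair 3 or pair 4, or in the fit on all 40 libraries.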

How the results depend on the processing

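Of 182 genes named, 174 passed the test under TNFα and 161 of these passed under every alternative fit. Among the other named genes that passed, 12 lost the call under at least 1 alternative other than leaving out a pair, 8 of them without the replicate block and 6 with GC correction, and 5 lost it when a pair was left out. The block changed no other call among them. With GC correction the log2 fold change took the opposite sign for *Tab1* (−0.0028), *Tnfrsf1a* (−0.086), *Nfkb2* (−0.22) and *Il6* (0.18), of which only *Tab1* had passed. Genes higher in iCre numbered 2817 to 4489 when each pair was left out and 1212 with a change of at least 1, and genes lower numbered 2788 to 4196 and 1736. Without the replicate block 3720 were higher and 3174 lower. With RLE scaling 3857 were higher and 4099 lower, with DESeq2 and the block 4041 and 4357, and with another filter 3963 and 4187. Which direction held more genes thus depended on the fit. The interaction against no ligand passed for 4054 genes without the block and for 3958 to 6418 when each pair was left out. The interaction against IL-1β passed for 342 genes without the block, 1365 with DESeq2 without the block, and 683 to 3612 when each pair was left out. Fewer libraries enter the fits that leave out a pair, and the cause of the other differences was not tested. The GC slope was 0.52 over all genes with a GC content and 0.38 to 0.44 when each pair was left out. Genes of low counts, such as *Aqp4*, *Gm15056*, *Cxcl11* and *Krt18*, have folds that depend on a few reads in 1 group.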
